A study of Mus musculus with 2 samples.

Results

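The 6 connexin genes Gja1, Gja3, Gja4, Gja5, Gjc1 and Gjb2 and the pannexin gene Panx1 were followed through total RNA sequencing of the embryonic mouse heart. They are 7 of the 43346 gene rows of the deposited tables. They were picked as rows whose Ensembl identifier, without its version, belongs to one of these symbols, and the rule itself uses no measured value. Of the 7, 6 reached a level of 1 TPM (a level per length of transcript, scaled to the same sum in each library) in both libraries, and Gjb2 did not.

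The study had 1 group of 2 libraries: heart tissue of the B6NCrl strain, a C57BL/6 substrain, taken at embryonic day 14.5, with no treatment named in the labels. Each library was made from 10 ng of RNA of a single heart. Replicate 1 was collected on day 15 and replicate 2 on day 17 of July, and heart, day of collection and library differ together. There was no second condition, so the measurements describe levels, their order and the difference between 2 hearts, and no p-value was computed. Nothing in the labels separates chambers, vessels or valves. In whole-heart RNA, fewer cells of a type and less RNA per cell cannot be told apart.

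Connexins are membrane proteins that assemble into hexameric half-channels. A half-channel docks with its counterpart in the neighbouring cell to form a gap junction channel, through which ions and small metabolites pass. In the heart these channels carry the electrical impulse from cell to cell, and different regions are known to use different connexins: Cx43 in working muscle, Cx40 in atrial muscle, conduction fibres and arterial endothelium, Cx45 in the early heart tube and the nodes, and Cx37 in endothelium. Pannexins have the same membrane topology, but work mainly as single-membrane channels that release ATP.

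The first extracellular loop of a connexin takes part in docking and carries a fixed spacing of cysteines, with 6 residues before the middle one and 3 after it. Coding sequence of that loop is shown because every connexin member carries this spacing, as well as another cysteine spacing further along the protein. It was read from GENCODE M21 transcripts (build GRCm38), 5′ to 3′ on the coding strand. Capitals mark the 3 cysteine codons.
Gja1: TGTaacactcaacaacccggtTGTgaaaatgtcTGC
Gja5: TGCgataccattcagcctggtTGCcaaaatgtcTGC
Gjc1: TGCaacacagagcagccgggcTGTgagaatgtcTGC
Gja4: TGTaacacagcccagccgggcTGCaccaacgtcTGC
Gja3: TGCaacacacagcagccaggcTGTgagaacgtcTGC
Gjb2: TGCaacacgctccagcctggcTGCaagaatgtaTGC

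The first-loop spacing began at residue 53 in Gjb2 and Gjc1 and at residue 54 in Gja1, Gja3, Gja4 and Gja5. It was found in 19 of the 20 mouse connexin genes and in 0 of the 3 pannexins, including Panx1. Among the principal proteins of all 21870 protein-coding genes, 2.07% hold it somewhere. Over the 15 pairs of connexin members, 37.2% to 52.0% of aligned residues were identical, with a median of 46.9%. Gja5 and Gjc1 were the least alike pair, and Gja3 and Gjb2 the most alike. Even so, few stretches are shared at the nucleotide level. Of the 25-base words in the members' transcripts, between 0% (Gja3, Gjb2) and 1.47% (Gjc1) also occur in a transcript of another gene, and the posterior SD of the deposited gene count was 0 reads for each of the 7 members in both libraries.

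All 6 connexin members have their whole coding sequence in a single exon, and Panx1 has 5 coding exons. Positions are those of GENCODE M21 on GRCm38. Gja1 lies on chromosome 10 from 56377330 to 56402513 on the plus strand. Gja5 lies on chromosome 3, where the models counted in the tables run from 97032416 to 97053634 on the plus strand. Gjc1 lies on chromosome 11 from 102799579 to 102819700, Gja4 on chromosome 4 from 127311421 to 127314039 and Panx1 on chromosome 9 from 15002128 to 15045478, all on the minus strand. Gja3 (57034460 to 57058100) and Gjb2 (57098600 to 57104702) lie on the minus strand of chromosome 14, 40.5 kb apart. No exon of another annotated gene overlaps an exon of the counted models.

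Replicate 1 held 2.85e+07 expected counts in all and replicate 2 held 2.90e+07, of which spike-in RNAs took 3.74% and 3.55%. Both labels give the sex as a pool of male and female beside a single heart. The Y-linked genes Ddx3y, Eif2s3y, Kdm5d and Uty stood at 12.7 to 57.5 TPM in replicate 1 and at no count in replicate 2. Xist stood at 0.04 TPM in replicate 1 and 37.7 in replicate 2. The libraries therefore go against that label, and sex differs between the hearts together with collection day. A chi-square of the counts over 16387 genes had a mean of 14.7 and a median of 1.83 per gene, and the libraries were counted as separate samples. All 6 cardiomyocyte markers (Tnnt2 highest, at 6128 TPM in replicate 1 and 5706 TPM in replicate 2) were detected, as the labelled tissue calls for.

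Among the connexins of heart muscle, Gja1 was far the most abundant. Gja1, which encodes Cx43, had 23739 reads in replicate 1 and 22724 in replicate 2, which made 377 TPM and 359 TPM (368 ± 12.7 TPM, SD, n = 2). It ranked 344th in replicate 1 and 385th in replicate 2 among all gene rows, and its mean level was above that of 97.3% of the 13635 genes expressed at 1 TPM or more in both. Gja1 stood above each other member in both hearts, with no overlap.

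Gjc1, which encodes Cx45, was second. It had 42.9 TPM in replicate 1 and 41.9 TPM in replicate 2 (42.4 ± 0.714 TPM), from 1546 and 1551 reads. The 2 values lie close together and above both values of every member other than Gja1. Gja1 exceeded Gjc1 by 3.12 ± 0.03 in log2 TPM, or 8.69-fold.

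Gja5, which encodes Cx40, had 30.7 TPM in replicate 1 and 33.05 TPM in replicate 2 (31.9 ± 1.68 TPM), from 1848 and 1927 reads. Gja4, which encodes the endothelial Cx37, had 32.3 TPM in replicate 1 and 32.9 TPM in replicate 2 (32.6 ± 0.389 TPM), from 1073 and 1097 reads. Gja4 was the higher of this pair in replicate 1 and Gja5 the higher in replicate 2, so their order was not resolved. Gjc1 exceeded Gja4 by 0.38 ± 0.04 in log2 TPM, or 1.30-fold, and Gja5 by 0.41 ± 0.10, or 1.33-fold. Part of the Gjc1 level came from noncoding models. Its 3 complete coding models together had 38.1 TPM in replicate 1 and 37.3 TPM in replicate 2. On these alone Gjc1 was still above Gja4 and Gja5 in both hearts, by a smaller margin. Each of Gjc1, Gja4 and Gja5 lay above 70.9% to 77.6% of expressed genes.

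Gja3 and Gjb2 are connexins known mainly from other organs, Gja3 (Cx46) from the fibre cells of the lens and Gjb2 (Cx26) from the cochlea, skin and liver. Gja3 had 15.5 TPM in replicate 1 and 17.2 TPM in replicate 2 (16.4 ± 1.22 TPM), from 470 and 525 reads. It was thus present in both hearts, at about the middle of the expressed genes (above 54.0% of them) and below Gja5 in both hearts, which exceeded it 1.95-fold. Of 4 lens markers, the crystallin genes Cryaa and Crygs and the lens channel gene Mip had no count in either library. The lens filament gene Bfsp1 had 1.63 TPM in replicate 1 and 1.75 TPM in replicate 2.

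Gjb2 had 3 reads in replicate 1 and 1 read in replicate 2, or 0.06 TPM and 0.02 TPM. The deposited credibility bounds of its TPM, whose level the tables do not state, ran from 0.0144 to 0.161 in replicate 1 and from 0.00116 to 0.0958 in replicate 2. At this depth 1 read of Gjb2 equals 0.0207 TPM in replicate 1 and 0.0206 TPM in replicate 2, so Gjb2 was near the limit of detection and no fold is given. The surface epithelium and liver markers were low as well, with 1 of 6 (Krt8, at 7.34 TPM in replicate 1 and 10.06 TPM in replicate 2) at 1 TPM or more in both.

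Panx1 had 14.4 TPM in replicate 1 and 15.75 TPM in replicate 2 (15.1 ± 0.933 TPM), from 411 and 451 reads. Of this level, 5.48 TPM in replicate 1 and 5.03 TPM in replicate 2 came from an incomplete model of 357 nt, with 29.6 and 27.3 expected reads. Panx1 lay beside Gja3, which was the higher within each heart, and the ranges of these genes overlapped between the hearts. Gja1 exceeded Panx1 24.4-fold.

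**Figure D1:**
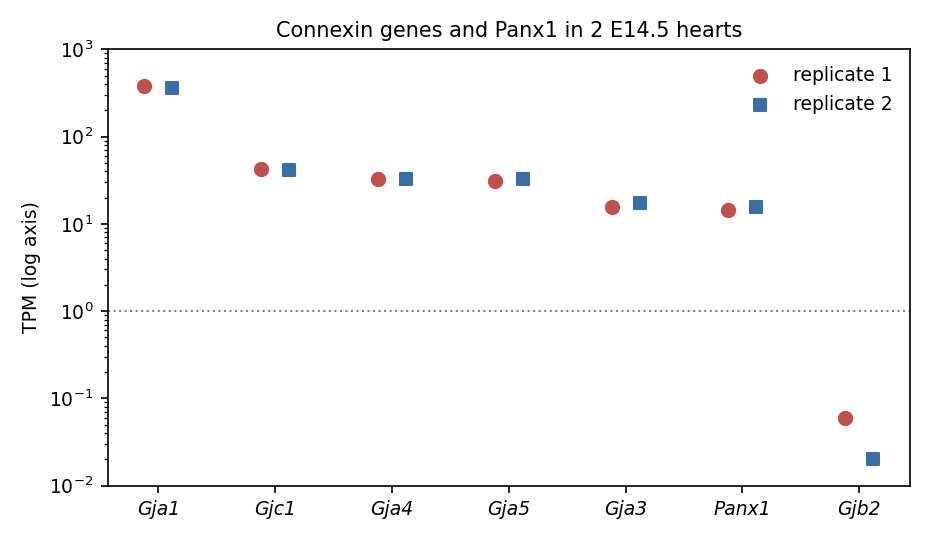
Level of each member in TPM on a log axis, with replicate 1 as circles left of replicate 2 as squares, 1 library each. The dotted line marks 1 TPM. Gja1 stands alone near 368 TPM, 5 genes lie between 14.4 and 42.9 TPM, and Gjb2 lies at 0.06 TPM in replicate 1 and 0.02 TPM in replicate 2.

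By mean level the order was Gja1, Gjc1, Gja4, Gja5, Gja3, Panx1 and Gjb2. Of the 6 neighbouring pairs in that order, 4 had libraries that did not overlap. The pairs that overlapped were Gja4 with Gja5 and Gja3 with Panx1. The order rests on TPM, which divides by the length of the transcript model. The Gja3 model in the tables is 1548 nt long, while that of GENCODE M21 is 2766 nt, so the level of Gja3 per length depends on the model used. For Gja1 the models measure 3105 nt and 3071 nt. The order of Gja4 and Gja5 in replicate 2 rests on an incomplete Gja5 model of 405 nt, with 2.91 TPM from 18.7 expected reads. The complete model Gja5-201 alone had 29.2 TPM in replicate 1 and 30.1 TPM in replicate 2, below Gja4 in both.

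The 20 mouse connexin genes summed to 500.3 TPM in replicate 1 and 487 TPM in replicate 2. Gja1 made up 75.4% of this sum in replicate 1 and 73.8% in replicate 2 (74.6% ± 1.17). Gjc1 held 8.57% and 8.59%, Gja4 held 6.46% and 6.75%, Gja5 held 6.13% and 6.78%, and Gja3 held 3.10% and 3.54%. These 5 genes together held 99.7% of the connexin sum in replicate 1 and 99.4% in replicate 2. By reads, without division by length, the share of Gja1 was 82.7% in replicate 1 and 81.5% in replicate 2, and that of Gja5, whose transcript is longer than those of Gjc1 and Gja4, was 6.43% and 6.91%, above both.

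Of the 14 connexin genes outside the members, none reached 1 TPM in both libraries and 13 were below it in both. Their reads summed to 39 in replicate 1 and 67 in replicate 2. The exception, Gjd3, was singled out after its values were seen. It encodes Cx30.2, known in the mouse from the atrioventricular node, and had 0.78 TPM in replicate 1 and 1.80 TPM in replicate 2, from 12 and 28 reads. The other 13 stood at 0.30 TPM or less, and Gja10 and Gjb1 had no count in either library. Of the other pannexins, Panx2 had 1.81 TPM in replicate 1 and 2.02 in replicate 2, and Panx3 had no count. Panx1 was therefore the most abundant pannexin gene in both hearts.

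**Figure D2:**
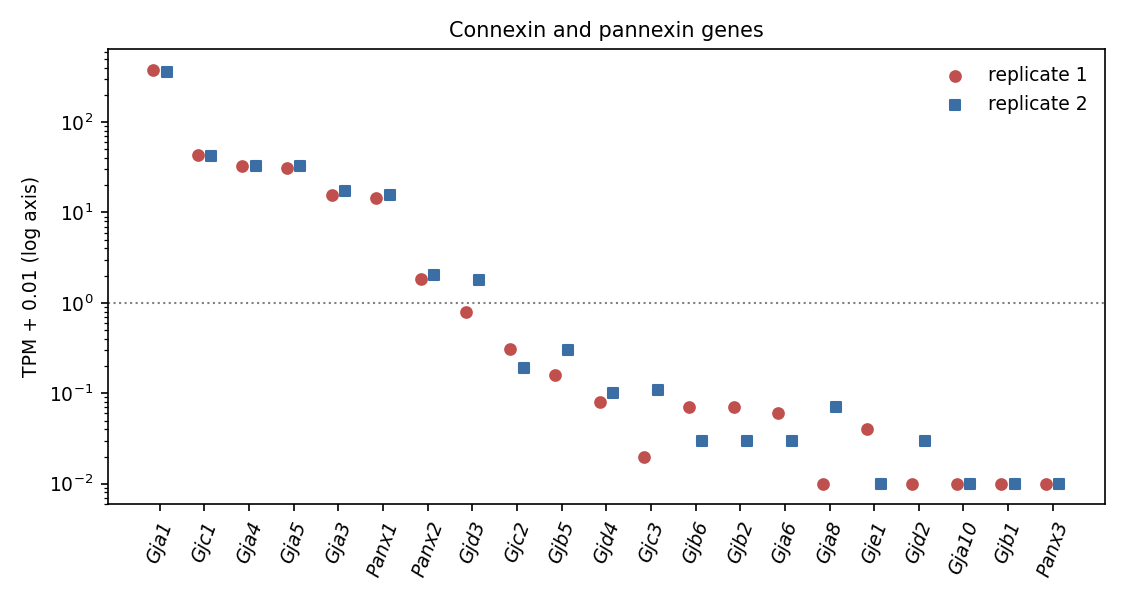
Level of connexin and pannexin genes as TPM + 0.01 on a log axis, ordered by mean TPM, with replicate 1 as circles and replicate 2 as squares. The 6 detected members and Panx2 lie above the dotted line at 1 in both libraries, Gjd3 lies on both sides of it (0.78 TPM in replicate 1 and 1.80 in replicate 2), and points at 0.01 are genes with a TPM of 0.

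Detected members have near neighbours in the genome with few or no reads. Gja3 is flanked on the same strand of chromosome 14 by Gjb2 at 40.5 kb and by the epithelial connexin gene Gjb6 at 65.2 kb. While Gja3 had 470 reads in replicate 1 and 525 in replicate 2, Gjb2 had 3 and 1, and Gjb6 had 1 in each. Gja4 has the epithelial connexin gene Gjb5 on the same strand of chromosome 4 at 40.8 kb. Against 1073 reads of Gja4 in replicate 1 and 1097 in replicate 2, Gjb5 had 5 and 10.

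The hearts differed little in these genes. Of the 6 members with a mean count of at least 10, 0 were 1.5-fold or more apart between the hearts, against 10.3% of all genes with that count (1687 of 16387). At that share, 0 of 6 does not set the members apart from other genes. Differences are log2 of replicate 1 over replicate 2 on counts scaled by TMM (trimmed mean of M values), with exact intervals that cover counting error only. Their median size was 0.06 over the 6 members and 0.13 over all genes tested, while the genes of like count to each member had medians of 0.06 (Gja1) to 0.12 (Panx1). With 3 members higher in each heart under TMM, they did not lean to one side. That split depends on the scaling. Under spike-in scaling, which put the median of all genes at -0.11, every counted member but Gja1 (0.01) read below 0.

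Gja1 was the member with the largest difference, 0.12 (95% interval 0.09 to 0.15), or 1.09-fold, and the only one whose interval left out 0. Among 233 genes of like count, 23.2% differed by more. The difference was 0.01 when the counts were scaled to the spike-ins. That scaling shifts every gene by the same amount and moved the median of all genes to -0.11. Gja1 lay 0.12 above the median under both scalings by construction, which is no check of its difference.

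The differences of Gjc1 (0.05, interval -0.05 to 0.16) and Gja4 (0.03, -0.10 to 0.15) were smaller than their counting error. Under spike-in scaling, with its same shift for every gene, they read -0.06 and -0.09, so their sign depended on the scaling. Gja5 differed by -0.00 (-0.10 to 0.09) on counts and by -0.11 as a ratio of TPM. Its effective length, which averages its transcripts by their shares, was 2878 nt in replicate 1 and 2772 nt in replicate 2. Gja1 and Gja4, with 1 model each and so the same length in both hearts, also read lower as a ratio of TPM. They went from 0.12 to 0.07 and from 0.03 to -0.02. Gja3 differed by -0.10 (-0.28 to 0.08) and Panx1 by -0.08 (-0.27 to 0.12), below 0 under each of the scalings tried but within their counting error under TMM.

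**Figure D3:**
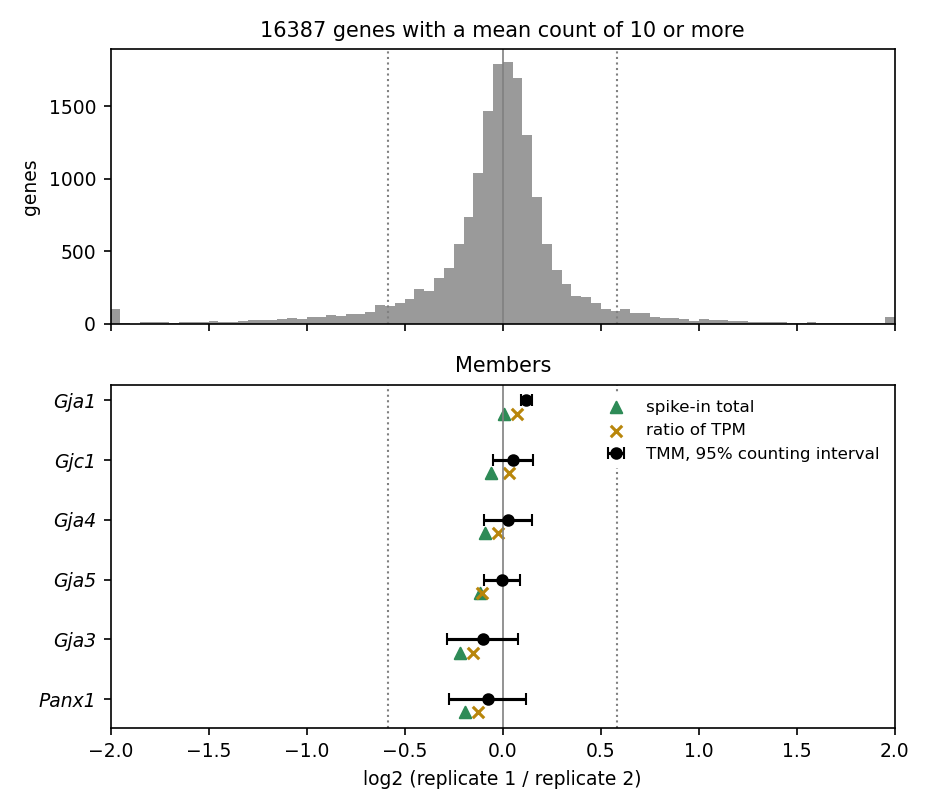
Upper panel, number of genes by log2 of replicate 1 over replicate 2 for 16387 genes, with the 132 genes beyond 2 on either side gathered in the end bars. Lower panel, the same difference for the 6 counted members under TMM scaling with its 95% counting interval (black), under spike-in scaling (triangles) and as a ratio of TPM (crosses); dotted lines mark 1.5-fold. All 6 members lie between the dotted lines, and the interval of Gja1, 0.09 to 0.15, is the one that leaves out 0.

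Markers of some cell types moved between the same hearts by more than the members did. All 5 red blood cell markers were higher in replicate 1, with a median difference of 1.04 and sums of 22001 TPM in replicate 1 and 12361 in replicate 2. The sinus node and inflow markers were lower in replicate 1 (median difference -0.88 over 5 counted, sums of 19.0 TPM and 31.8 TPM). The neuron and glia markers were lower in replicate 1 as well (median -1.74 over 5, sums of 6.19 TPM and 13.7 TPM). Of the atrial muscle markers, Myl7 differed by -0.43 and Sln by -0.48, and the median of the 6 was -0.24. Single genes of that list ran from -0.48 to 0.05, and none was 1.5-fold or more apart. Their part in the member values was not tested.

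Markers of the other heart cell types listed had medians nearer 0. The 6 cardiomyocyte markers had a median difference of 0.10, with single genes from -0.09 to 0.21. The 6 ventricular markers also had 0.10, with single genes from -0.11 to 0.19. The 8 endothelial and endocardial markers had a median of 0.08, with single genes from -0.34 (Tie1) to 0.23 (Pecam1). The 7 arterial markers, of which 6 were counted, had a median of 0.01, with single genes from -0.17 (Unc5b) to 0.41 (Dll4). These medians therefore rest on markers that went both ways. The 8 smooth muscle and pericyte markers had a median of 0.03, although Myh11 was at 0.43 TPM in replicate 1 and 1.39 in replicate 2. The 7 epicardial markers had a median of -0.11, although Upk3b was at 26.65 TPM in replicate 1 and 41.51 in replicate 2, a difference of -0.59. The 6 fibroblast and cushion markers had a median of -0.16 and the 5 macrophage markers one of 0.13.

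**Figure D4:**
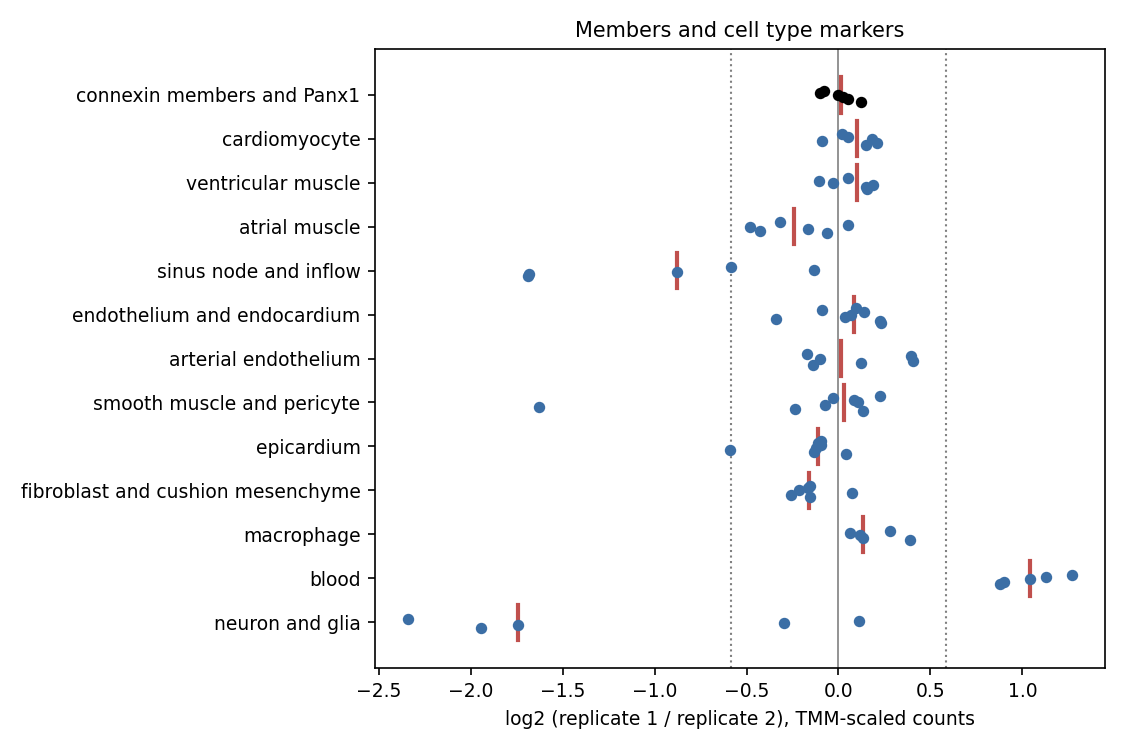
Log2 of replicate 1 over replicate 2 on TMM-scaled counts for the 6 counted members (black) and for markers of 12 cell types (blue points, 1 gene each, mean count of at least 10), with list medians as red bars and dotted lines at 1.5-fold. The members lie between -0.10 and 0.12, while the blood markers have a median of 1.04 and the neuron and glia markers one of -1.74.

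Genes that act on connexins and their channels were measured beside them, in lists chosen with results of these hearts known. All 16 gap junction partners were at 1 TPM or more in both hearts. The highest were Nedd4, a ubiquitin ligase that targets Cx43 (488 TPM in replicate 1 and 476 in replicate 2), the caveolin gene Cav1 (224 TPM and 242 TPM) and the autophagy gene Map1lc3b (188 TPM and 199.9 TPM). The scaffold gene Tjp1, whose product ZO-1 binds the tail of Cx43, had 14.2 TPM in replicate 1 and 11.2 TPM in replicate 2. Of the 16, 1 was 1.5-fold or more apart, near the 10.3% of all genes. That was the kinase gene Src, with 3.25 TPM in replicate 1 and 5.23 in replicate 2, and its product phosphorylates Cx43. The list's median difference was 0.05, against 0.00 over all genes tested.

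All 16 transcription regulators of connexin genes were also at 1 TPM or more in both hearts. Nkx2-5 (134 TPM in replicate 1 and 137 TPM in replicate 2), Gata4 (123 TPM and 124 TPM) and Jun (27.8 TPM and 30.6 TPM) were highest. Tbx5, an activator of Gja5, had 22.5 TPM in replicate 1 and 25.2 TPM in replicate 2. Of the 16, 2 were 1.5-fold or more apart, near the 10.3% of all genes, and both were lower in replicate 1. Shox2, a regulator of the sinus node, had 2.58 TPM in replicate 1 and 8.80 TPM in replicate 2, a difference of -1.69. Tbx2, a repressor of Gja1 and Gja5 in the atrioventricular canal, had 1.69 TPM in replicate 1 and 3.10 TPM in replicate 2, a difference of -0.82. The related repressor Tbx3 was just short of 1.5-fold at -0.58, and the median of the list was -0.10. Tbx3, Tbx18 and Shox2 are also in the sinus node list, Nr2f2 in the atrial list, Sox17 in the arterial list and Nkx2-5 in the cardiomyocyte list.

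Of 16 genes of pannexin and purinergic signalling, 11 were at 1 TPM or more in both hearts. The ATP-gated channel gene P2rx4 was the highest of the ATP receptors, with 12.95 TPM in replicate 1 and 12.0 TPM in replicate 2. Of the 15 counted, 2 were 1.5-fold or more apart, again near the 10.3% of all genes. They were P2rx7 and Adora2b, both with mean counts below 100 and both lower in replicate 1. The list's median difference was 0.04.

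Transcripts add detail for Gjc1, Gja5 and Panx1, since the tables hold 1 model each for Gja1, Gja3, Gja4 and Gjb2. For Gjc1, 5 models were counted. Gjc1-201 held 74.9% of the gene's TPM in replicate 1 and 74.3% in replicate 2. Gjc1-202 held 10.0% and 8.36%, and Gjc1-203 held 4.07% and 6.39%. These 3 carry the same coding sequence of 396 codons and differ in their first exons, at 102818970 to 102819179 (Gjc1-201), 102819504 to 102819700 (Gjc1-202) and 102804281 to 102804901 (Gjc1-203) on chromosome 11. Together they held 89.0% of the TPM in replicate 1 and 89.1% in replicate 2. The noncoding model Gjc1-204, of 247 nt, held 8.28% and 7.34% of TPM but only 0.711% and 0.616% of the reads. The posterior SD of the split was 58.7 reads in replicate 1 and 46.3 reads in replicate 2 for Gjc1-201, and 55.2 reads and 43.7 reads for Gjc1-202. By these estimates the first exon of Gjc1-201 led in both hearts.

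For Gja5, Gja5-201 held 95.1% of TPM in replicate 1 and 91.2% in replicate 2. Gja5-202, an incomplete model of 405 nt, held the remaining 4.87% and 8.80%. Their first exons begin at the same base, 97032416. By reads Gja5-202 held 0.518% in replicate 1 and 0.972% in replicate 2, from 9.57 and 18.7 expected reads with posterior SDs of 4.20 and 5.22 reads.

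Most Panx1 reads were not assigned to the transcript that encodes the full-length channel. Panx1-202, which encodes 426 residues, held 20.8% of the gene's TPM in replicate 1 and 16.7% in replicate 2, or 39.7% and 31.9% of its reads. Panx1-201, annotated as a target of nonsense-mediated decay (the removal of messages with an early stop codon), held 41.2% and 46.9% of TPM, or 53.1% and 60.5% of reads. Panx1-204, an incomplete model of 357 nt, held 38.0% and 31.9% of TPM but 7.20% and 6.05% of reads. A retained-intron model, Panx1-203, stayed under 5% of TPM in both, at 0% and 4.48%.

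Panx1-201 lacks an exon of 221 bases at chr9:15010036-15010256 (GRCm38, minus strand), which is not a multiple of 3. The junctions are shown because they set how far the protein can be read. In Panx1-202 capitals mark the first bases of that exon, and in Panx1-201 capitals mark the stop codon that follows when the exon is left out, after 112 codons.
Panx1-202: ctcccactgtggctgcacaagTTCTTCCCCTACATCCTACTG
Panx1-201: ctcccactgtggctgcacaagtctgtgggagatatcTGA

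The level of Panx1-202 was 3.0 TPM in replicate 1 (deposited bounds 1.68 to 3.92) and 2.63 TPM in replicate 2 (0.885 to 3.70). Panx1-201 was at 5.95 TPM in replicate 1 (4.39 to 7.40) and 7.39 TPM in replicate 2 (5.69 to 9.33). These bounds do not overlap within either library. The split carries posterior SDs of 25.1 reads in replicate 1 and 30.6 reads in replicate 2 for Panx1-201, and of 29.6 reads and 38.4 reads for Panx1-202. The model of Panx1-202 in the tables measures 2699 nt and lacks 3033 nt that GENCODE M21 gives it, and how the split would fall with the longer model was not tested.

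**Figure D5:**
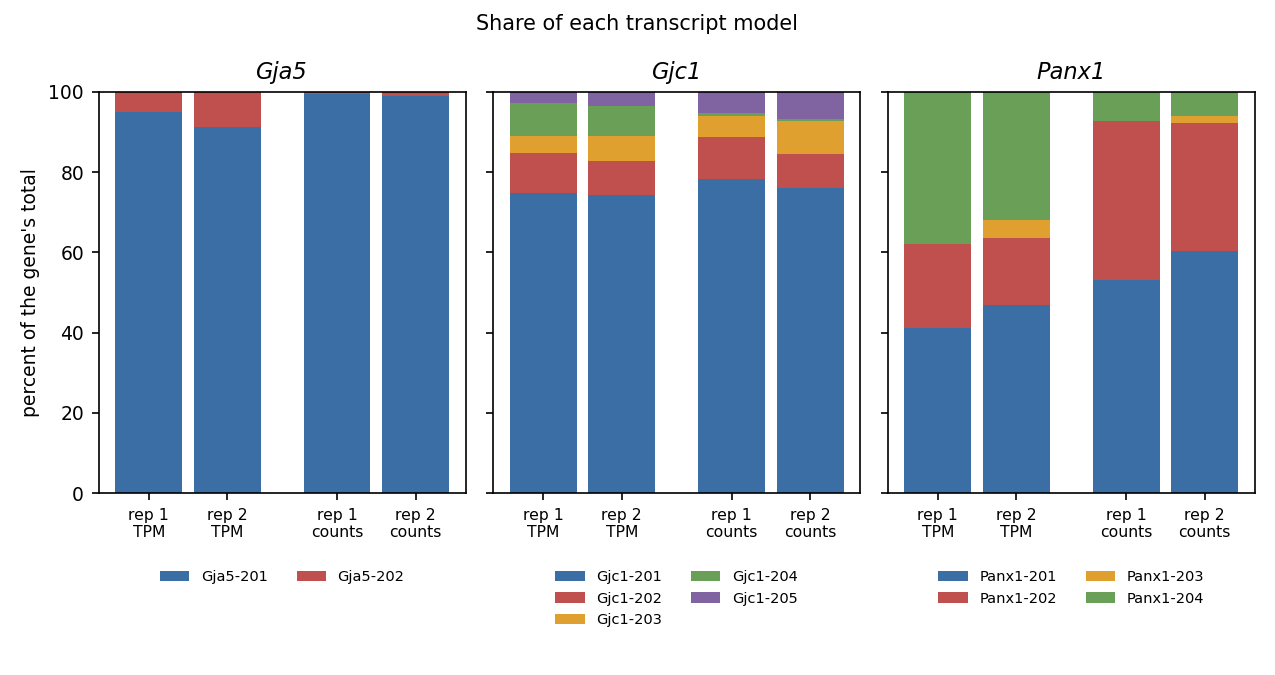
Share of each transcript model in its gene's total for Gja5, Gjc1 and Panx1, in percent of TPM (left pair of bars) and percent of expected counts (right pair), replicate 1 left of replicate 2. Gja5-201 and Gjc1-201 fill most of their bars on both scales. In Panx1 the short model Panx1-204 takes 38.0% of TPM but 7.20% of counts in replicate 1, and Panx1-201 is the largest part on both scales.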

How the data were processed

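Total RNA of 2 single E14.5 hearts was sequenced. Reads were quantified on mm10 with GENCODE M4, per the notes deposited beside the tables. Not given in the sources used here are the aligner, the quantifier and whether strand was used. The expected counts (estimated counts that need not be whole) and TPM are the authors' deposited values, with column names as RSEM gives them. The deposited posterior mean TPM, the bounds of its signal, the posterior SD of the count (a score) and the isoform percent come from the same tables. The authors' TPM includes spike-ins in its sum. Names and positions came from GENCODE M21 for 98.0% of gene rows. For intervals, expected counts were first rounded. Scaling was TMM (edgeR 4.0.16), with size factors (DESeq2 1.42.0), total and spike-in scaling as alternatives, a prior of 0.5 and a mean count of at least 10, and was tested on simulated data. Reads are not independent molecules. SDs over 2 hearts rest on 1 library each. Named genes are the members, other family genes at 1 TPM or more in both, and of each list the 3 highest and those 1.5-fold apart with 100 counts or more; Tjp1, Tbx3, Tbx5, Gjd3, P2rx7 and Adora2b, the neighbouring connexin genes, family genes with no count and, among the markers, Sln, Tie1, Unc5b and Dll4 fall outside this rule and were chosen after their values were seen. Members and lists were chosen with earlier results of these data known. Some genes of the family and the lists are counted but not reported here by name.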

Additional observations from a re-analysis of the deposited data

How the results depend on the processing

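The 4 results the design sets out were recomputed under 20 other settings. The count of members at 1 TPM or more in both hearts was 6 at thresholds of 0.5 and 2 TPM, with posterior mean TPM and in each heart alone. The count of members 1.5-fold or more apart was 0 under 4 other scalings, posterior mean counts, a mean count of at least 100, and folds of 1.2 and 2. The settings of 100 counts and of 2-fold are stricter than the main one, so they could only give 0 and are no check. Without the filter on counts the number of members apart was 1, which is Gjb2 at 3 reads in replicate 1 and 1 read in replicate 2. The share of Gja1 in the connexin sum was 82.1% by expected counts, which are not divided by length, 74.3% by posterior mean TPM, and 73.8% to 75.4% with either heart left out. The count of neighbours that do not overlap stayed at 4 under both settings tried. Rescaling TPM over gene rows alone raised every level, that of Gja1 to 398 TPM. No paired analysis was possible because there is 1 group, and the difference between the hearts has no value with either left out. Depth limits Gjb2 and the connexins at a few reads.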
